A study of Lactuca sativa with 20 samples.

Results

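The 100 gene models with the most reads in control lettuce seedlings were followed through 5 hormone and peptide treatments. They were chosen by mean CPM, the count of a gene model scaled to its library's total, over the 5 control libraries (2 of ethanol and 3 of water). They are 100 of 37828 gene models in the count table, 0.264% of the list, and are called members here. The control values chose the members, so their control levels and every comparison with a control are descriptions, and tests are given where neither group compared is a control. The control libraries still enter these tests through the spread between replicates, which was estimated over all 20 libraries.

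Whole Little Gem seedlings (Lactuca sativa), 4 days old and grown in continuous light on MS medium, were moved for 2 h into 1 of 7 solutions, and their RNA was sequenced. The solutions were 0.02% ethanol, with 2 libraries, and, with 3 libraries each, water, CLE12p, ABA, ACC, and the mixtures CLE12p with ACC and CLE12p with ABA, all agents being at 10 µM. ABA (abscisic acid) is the hormone of drought and seed dormancy, ACC is the compound from which plants make the gas ethylene, and CLE12p is the peptide of the lettuce gene LsCLE12. The series' design text names the last mixture ABA + ACC, but the labels of its 3 libraries name the peptide and ACC, and those labels were used. Nothing in the labels states whether the mixtures with ABA also held ethanol, or whether replicates were separately grown, so p-values measure only the spread between these libraries, which may be technical.

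In a green seedling the most abundant messages usually encode the machinery of photosynthesis, the photosynthetic carbon cycle, translation and a few storage or wall proteins. CLE peptides are short secreted signals that bind receptor kinases at the cell surface, and ABA and ethylene act through their own receptors to change transcription within hours. CPM divides each count by its library's total, so a gain by any abundant transcript lowers the share left for all others. A level here is therefore always a share. Which of these functions the members serve cannot be given, because the table pairs its identifiers with no names and 0 of the 37828 matched a reference table of 51651 lettuce genes. For the same reason the labelled tissue could not be checked against marker genes, and members are given by identifier.

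The members took 20.9% of the counts averaged over the control libraries. A single gene model, Lsat_1_v5_gn_4_153980, took 1.36%, the first 5 took 4.55%, the first 20 took 9.42% and the first 50 took 15.3%. Doubling the list to 200 gene models raised the share to only 27.0%, and 1000 gene models were needed for 47.1%. Within the 100, 5 members lay above 5000 CPM, 27 lay between 2000 and 5000 CPM with 7.60% of the counts, 48 lay between 1000 and 2000 CPM with 6.88%, and 20 lay below 1000 CPM with 1.82%. CPM is not divided by transcript length, and lengths were not used here, so the order of the members is one of reads and not of molecules.

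**Figure D1:**
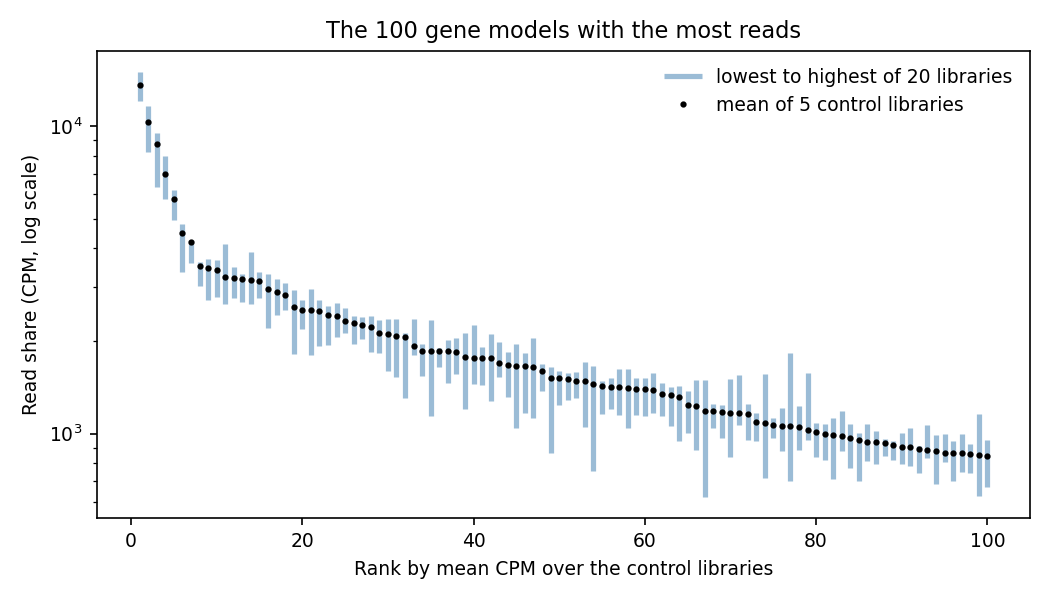
Read share of each of the 100 members against its control rank, with CPM on a log scale. Dots are means of the 5 control libraries and bars run from the lowest to the highest of the 20 libraries; the first 5 members stand above 5000 CPM, and from about rank 30 on some bars reach well below their neighbours.

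The list has no gap at its end. Lsat_1_v5_gn_7_16000 at rank 99 had 854 ± 34.0 CPM (SD, n = 5 control libraries), and Lsat_1_v5_gn_3_46860 at rank 100 had 845 ± 65.1 CPM. Just outside, Lsat_1_v5_gn_4_28880 had 844 ± 214 CPM with a range from 520 to 1115, and Lsat_1_v5_gn_8_72280 had 836 ± 31.5 CPM. Membership at the end of the list therefore rests on differences smaller than the spread of these gene models. The lists drawn from the water libraries alone or from the ethanol libraries alone each shared 97 gene models with the members.

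The 5 highest members kept the same order in all 7 group means. Lsat_1_v5_gn_4_153980 ranged from 12612 ± 768 CPM in CLE12p with ACC to 13995 ± 866 CPM in water (SD, n = 3 each). Lsat_1_v5_gn_2_79481 ranged from 9242 ± 925 CPM in CLE12p with ABA to 10900 ± 1015 CPM in ethanol (n = 2). Lsat_1_v5_gn_2_118741 ranged from 6839 ± 481 CPM in CLE12p with ACC to 9138 ± 393 CPM in water. Lsat_1_v5_gn_4_64540 stayed between 6405 and 7417 CPM, and Lsat_1_v5_gn_2_79581 between 5291 and 5851 CPM, as group means. The third of these carries the one call among the 5, described with the peptide and ACC.

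Lsat_1_v5_gn_2_79481 and Lsat_1_v5_gn_2_79581 belong to a run of 4 members whose identifiers lie within 10 steps of each other in sorted order. The run is Lsat_1_v5_gn_2_79481, Lsat_1_v5_gn_2_79501, Lsat_1_v5_gn_2_79581 and Lsat_1_v5_gn_2_79600, at control ranks 2, 82, 5 and 6, and it held 2.16% of the control counts. Whether these are copies of one gene is not annotated in the files, and if they are near-identical the authors' counting could have split reads among them. Over the 5 comparisons of 2 groups without controls, edgeR called 0 of 20 tests of these 4 members, with 3 at an unadjusted p below 0.05, and DESeq2 called 1, with 3. In the same comparisons edgeR called 3.93 to 23.7% of all gene models tested and 3 to 18% of the members. With so few tests, the run cannot be said to be steadier than other members. There were 3 further runs, of 2 members each.

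The share of each library in the members was lower in the mean of every treated group than in either control group. It was 20.9, 21.6 and 19.9% in the water libraries and 20.9% in both ethanol libraries. It was 20.3, 20.4 and 20.7% under ABA and 20.1, 20.3 and 19.7% under ACC. The ABA libraries lay above the lowest water library and below all other controls, and the ACC libraries lay on either side of that water library. With the peptide, the share was 20.4, 19.0 and 19.9% under CLE12p, 21.0, 19.0 and 19.1% under CLE12p with ABA, and 18.8, 18.9 and 19.5% under CLE12p with ACC. CLE12p with ABA replicate 1 stood about as high as the controls, and its partners stood with the lowest libraries of the series. Because the members were chosen as the highest in the controls, a lower share elsewhere is partly built into the choice and no test is given.

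**Figure D2:**
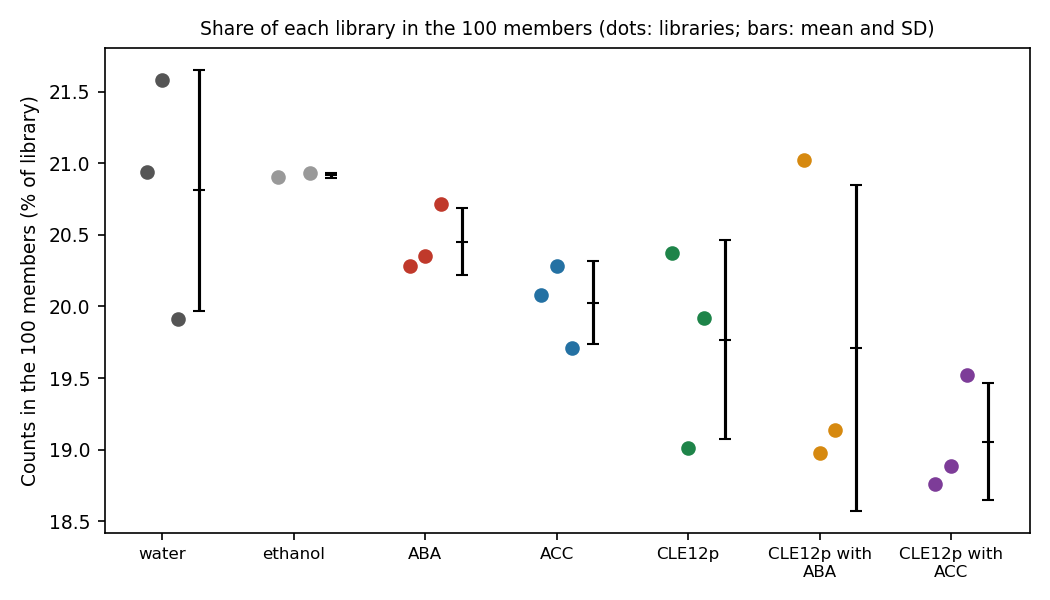
Percent of each library's counts held by the 100 members, by treatment group. Dots are single libraries and bars give the mean and SD; the axis does not start at 0. Values ran from 18.8 to 21.6%, with the lowest group mean, 19.1%, in CLE12p with ACC.

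Between treated groups, the share was 0.969 percentage points lower in CLE12p with ACC than in ACC alone, and the libraries did not overlap. In that pair 60 members gave up 1.47 points and 40 gained 0.502 points, the largest loss being 0.213 points at Lsat_1_v5_gn_2_118741 and the largest gain 0.111 points at Lsat_1_v5_gn_2_79481. The share was 0.739 points lower in CLE12p with ABA than in ABA alone, with 66 members lower and 34 higher, and here the libraries overlapped. The ABA libraries held 0.426 points more than the ACC libraries, without overlap, although the lowest ABA and the highest ACC library both stood at 20.3%. The first 5 members held from 4.21 ± 0.0485% (CLE12p with ACC) to 4.55 ± 0.304% (water). Ranks 6 to 100, which hold most of the members' counts, ran from 14.8 ± 0.365% (CLE12p with ACC) to 16.4 ± 0.0317% (ethanol, n = 2). Gene models of rank 101 to 1000 stayed between 25.8 and 26.4% in all group means, and those from rank 1001 on ran from 52.8% in ethanol to 54.6% in CLE12p with ACC. In whole seedlings a lower share cannot be told apart as fewer cells of a type or less of the RNA in each cell.

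Turnover at the top of the list was small. Of the members, 97 were also among the first 100 of the water mean and of the ethanol mean, 93 of ABA, 91 of ACC, 93 of CLE12p, 92 of CLE12p with ABA and 89 of CLE12p with ACC. The higher numbers in the control means are partly built into the choice of members. In single libraries 75 members were among the first 100 of all 20, and all 100 were among the first 200 of all 20. The deepest position of any member was rank 148, for Lsat_1_v5_gn_7_16000 in CLE12p replicate 1. In the other direction 20 gene models entered the first 100 of a treated group. The entrant from farthest down was Lsat_1_v5_gn_9_2920, at control rank 258, with 403 CPM in the controls, 1067 CPM under ACC and 1314 CPM under CLE12p with ACC.

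Members varied about as much across the series as the gene models ranked next below them, and less than the whole table. The range of the 7 group means, in log2 CPM with the libraries scaled by TMM factors, had a median of 0.25 over the members and 0.51 over the 23413 gene models tested. It was under 0.5 for 87 members, between 0.5 and 1 for 11, and at least 1 for 2, whereas 49.4% of all gene models tested were under 0.5 and 22.3% reached 1. The median SD within groups was 0.106 for members and 0.182 for all gene models tested. Gene models of rank 101 to 500 had a within-group SD of 0.0987 and a range of 0.31, and those of rank 501 to 2000 an SD of 0.0885 and a range of 0.26. The lowest member count in any library was 11674, which has a 95% counting half-width of 1.81% (counting error only), and the members' median within-group SD corresponds to 7.61%. The median within-group SD of the members was 0.0366 in ABA, 0.0529 in ACC, 0.0783 in ethanol (n = 2) and 0.0887 in water. It was 0.138 in CLE12p, 0.121 in CLE12p with ABA and 0.0953 in CLE12p with ACC, the last only a little above water. Over all gene models tested it was 0.119 to 0.149 without the peptide and 0.161 to 0.177 with it.

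The members with the narrowest range were Lsat_1_v5_gn_5_115801 (0.084), Lsat_1_v5_gn_6_25460 (0.092) and Lsat_1_v5_gn_5_105820 (0.097), on the same TMM-scaled log2 scale. The CPM values that follow are not TMM-scaled, so their extremes lie farther apart or nearer than these ranges. Lsat_1_v5_gn_5_115801 had group means from 1143 to 1207 CPM. Lsat_1_v5_gn_6_25460 had group means from 1391 ± 50.9 CPM in CLE12p with ACC to 1530 ± 18.3 CPM in ABA. Lsat_1_v5_gn_5_105820, at control rank 15, had group means from 2905 to 3195 CPM. The widest ranges were those of Lsat_1_v5_gn_2_82001 (1.17), Lsat_1_v5_gn_8_96880 (1.09) and Lsat_1_v5_gn_4_183881 (0.87), at control ranks 77, 74 and 54, and all of these were called in the tests that follow.

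The 5 pairs of treated groups that follow were tested with edgeR's quasi-likelihood method on all 23413 gene models, and a member was called at a Benjamini-Hochberg adjusted p below 0.05. Shares of all gene models called are given for this fit only. Counts of members under other settings show how the count moved, and not whether the members moved more than other gene models. In all, 32 members were called at least once and 68 in none of the 5, beside 31.4% of all gene models tested called at least once. Of the 32, 22 were called in 1 comparison, 7 in 2 and 3 in 3. The members' median absolute log2 fold change lay between 0.073 and 0.110 over the 5 comparisons, against 0.146 to 0.220 for all gene models, of which those from rank 10001 on had the highest medians. Ranks 501 to 2000 had medians like those of the members, and lower ones in 3 of the 5 comparisons, at 0.0863 against 0.0881, 0.0930 against 0.110 and 0.0902 against 0.0926. The members' median standard error, 0.0813, was close to that of ranks 101 to 500 at 0.0798, a class in which larger shares were called in each of the 5 comparisons. The shares were 22.2, 10.8, 34.8, 6 and 12.8% for ranks 101 to 500, in the order in which the comparisons follow, and 11, 3, 18, 4 and 9% for the members. In the last of these, CLE12p with ACC against ACC, lower classes were called less often than the members, at 7.87% for ranks 501 to 2000 and 6.59% for ranks 2001 to 10000.

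**Figure D3:**
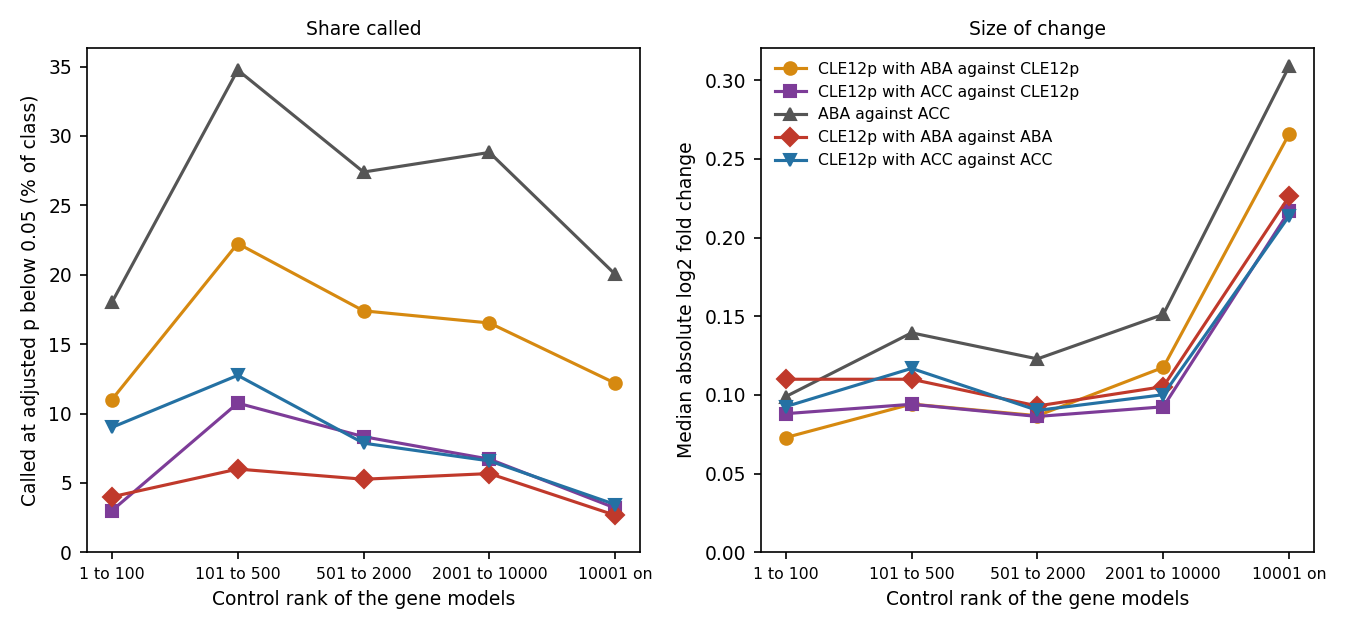
Share of gene models called (left, percent of the class) and median absolute log2 fold change (right) by control rank class, for the 5 comparisons of treated groups. In each comparison the share called is higher in ranks 101 to 500 than in the first 100, and the median size of change is highest from rank 10001 on.

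In seedlings given the peptide, 4 members were higher and 7 lower with added ABA, where 14.2% of all gene models tested were called (6.24% higher and 7.93% lower). If the ABA mixtures held ethanol, this comparison does not separate ABA from its vehicle for any of these calls. Lsat_1_v5_gn_2_82001 had 1532, 1366 and 1681 CPM with ABA against 850, 699 and 747 CPM with the peptide alone. It rose by 0.96 ± 0.19 (log2 fold change ± SE, adjusted p = 0.000946), and each of its ABA libraries stood well clear of the others. In ethanol, which the ABA mixtures may have held, this member had 1571 and 1211 CPM against 740 to 992 CPM in water, and ABA differed from ethanol by 0.32 ± 0.21 (adjusted p = 0.435), so ABA and its vehicle cannot be told apart here or in the comparison of ABA with ACC. Lsat_1_v5_gn_7_14360 rose less, by 0.35 ± 0.08 (adjusted p = 0.00201), from 1061 ± 26.4 to 1382 ± 109 CPM (SD, n = 3). Lsat_1_v5_gn_4_183881 had 753, 828 and 860 CPM with ABA against 1446, 1653 and 1132 CPM without. It fell by 0.82 ± 0.10 (adjusted p = 2.01e-06), and the groups did not overlap although the peptide libraries were scattered. Lsat_1_v5_gn_8_96880 fell by 0.61 ± 0.07 (adjusted p = 1.48e-06), from 1205 ± 94.6 to 808 ± 42.0 CPM. The median of all 100 members was -0.02, and it was 0.01 when libraries were scaled by their totals, so no overall direction is given.

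Added ACC in peptide-treated seedlings moved 3 members, beside 4.85% of all gene models (2.51% higher and 2.34% lower). Lsat_1_v5_gn_2_82001 had 888, 1588 and 1729 CPM with ACC against 850, 699 and 747 CPM with the peptide alone. It rose by 0.89 ± 0.19 (adjusted p = 0.00705), with CLE12p with ACC replicate 1 close to the peptide libraries. Lsat_1_v5_gn_8_96880 rose by 0.35 ± 0.07 (adjusted p = 0.00511), from 1205 ± 94.6 to 1519 ± 37.2 CPM. Lsat_1_v5_gn_3_6660 fell by 0.29 ± 0.06 (adjusted p = 0.00678), from 2301 ± 58.3 to 1869 ± 105 CPM. These 3 calls rest on the spread shared over all groups: with only the 6 libraries compared, edgeR called 0 members, the 3 adjusted p-values ranging from 0.0712 to 0.144. The count was 8 without CLE12p replicate 3 and 5 without CLE12p with ABA replicate 3, and the split of 2 higher and 1 lower became 2 and 3 with library totals. The comparison with ABA uses the same peptide libraries, so the results for Lsat_1_v5_gn_2_82001 in both are not independent.

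ABA against ACC, both without the peptide, gave the most calls of the 5 comparisons. Of the members, 9 were higher and 9 lower in ABA, where 23.7% of all gene models were called (11.4% higher and 12.3% lower). Here too, ABA is not separated from ethanol if its solution held any. Lsat_1_v5_gn_8_96880 had 746, 749 and 717 CPM under ABA against 1402, 1375 and 1428 CPM under ACC. It was 0.95 ± 0.07 lower in ABA on the log2 scale (adjusted p = 1.31e-09), with tight groups far apart. Lsat_1_v5_gn_4_183881 was lower as well, by 0.67 ± 0.10 (adjusted p = 1.51e-05), at 931 ± 27.0 against 1459 ± 81.4 CPM. Lsat_1_v5_gn_9_113301 had 1609, 1618 and 1601 CPM under ABA against 999, 918 and 966 CPM under ACC. It was 0.72 ± 0.11 higher in ABA (adjusted p = 1.93e-05), again without overlap.

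Lsat_1_v5_gn_2_82001 had 1626, 1831 and 1812 CPM under ABA against 1459, 959 and 1190 CPM under ACC, a difference of 0.52 ± 0.19 (adjusted p = 0.0480). This call did not hold by DESeq2 (0.0708) or with a replicate block (0.0644). In edgeR it was also lost without ACC replicate 2 (0.217) or 3 (0.123), without any 1 of the ABA libraries (0.0660 to 0.123), and without water replicate 1, CLE12p replicate 3, CLE12p with ABA replicate 1 or 3, or CLE12p with ACC replicate 2 (0.0504 to 0.0552). The count of 18 became 10 without ACC replicate 2, and 46 with only the 6 libraries of ABA and ACC. The share of all gene models called in those settings is not given here. The even split of 9 and 9 became 16 higher and 6 lower with totals that left out the members, and 18 and 7 with library totals. Against the comparison of ABA in peptide-treated seedlings, which shares no library with this one, 6 members were called in the same direction in both, of 11 and 18, and 0 in opposite directions. Of all gene models tested, 2206 were called in the same direction in both, of 3317 and 5559, and 50 in opposite directions. Of the 100 members, 36 had the same sign in both comparisons, with r of 0.43 and rho of 0.05. Over all gene models 64.0% had one sign, with r of 0.65. The members' median absolute log2 fold changes, 0.073 with the peptide and 0.099 without, were near their median standard error of 0.081. Their signs also shift with scaling: 58 and 40 members lay below 0 with TMM factors, and 43 and 36 with library totals. ABA against ACC also holds any effect of ACC, so the 2 comparisons need not match.

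**Figure D4:**
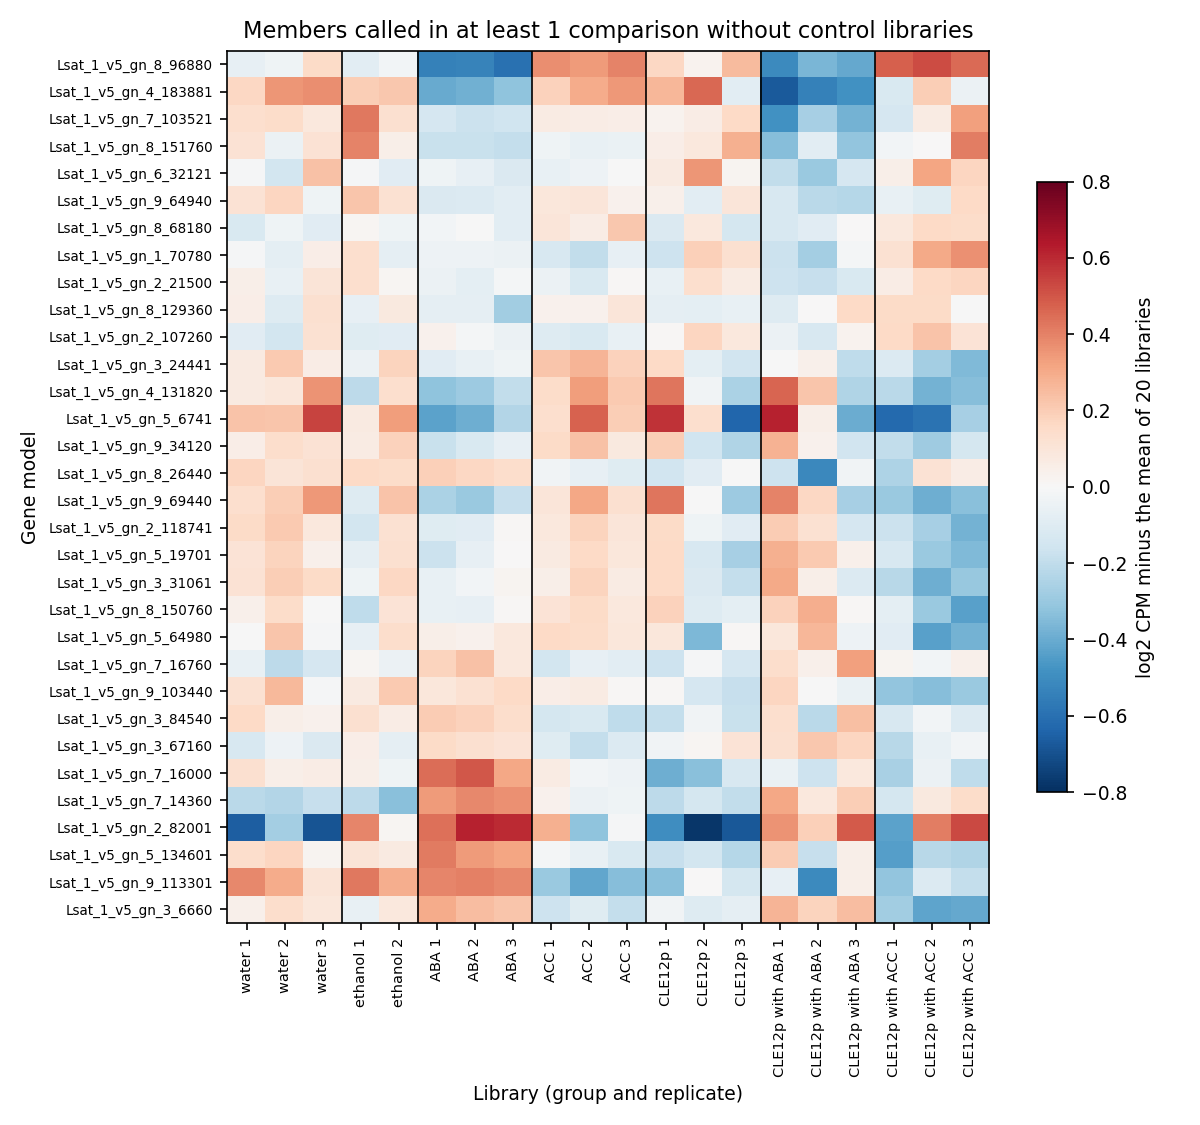
The 32 members called in at least 1 of the 5 comparisons, as log2 CPM minus the mean of the 20 libraries, ordered by the difference between libraries with ABA and libraries with ACC, without TMM scaling. Blue is lower and red higher, with colours capped at 0.8 either way. Lsat_1_v5_gn_8_96880 is low in all 6 libraries with ABA and high in all 6 with ACC, and Lsat_1_v5_gn_9_113301 is high in ABA and the controls and lower in all libraries with ACC or the peptide.

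Adding the peptide to ABA lowered 4 members and raised 0, where 3.93% of all gene models were called (2.65% higher and 1.28% lower). Lsat_1_v5_gn_9_113301 had 1172, 861 and 1266 CPM with the peptide against 1609, 1618 and 1601 CPM with ABA alone. It fell by 0.55 ± 0.11 (adjusted p = 0.00362), and all libraries with the peptide lay below those without. Lsat_1_v5_gn_7_16000 had 793, 735 and 875 CPM against 1124, 1161 and 1021 CPM, and fell by 0.46 ± 0.08 (adjusted p = 0.00149). Both calls held under all alternatives tried.

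The other calls beside ABA, named because so few were made and after their values had been seen, were Lsat_1_v5_gn_8_26440 and Lsat_1_v5_gn_5_134601. The first fell by 0.39 ± 0.10 (adjusted p = 0.0241) from 2094 ± 36.2 to 1600 ± 267 CPM, its lowest library being CLE12p with ABA replicate 2 at 1306 CPM. The second fell by 0.32 ± 0.08 (adjusted p = 0.0307) from 1961 ± 71.6 to 1564 ± 209 CPM, again lowest in that library, at 1347 CPM. Without that library their adjusted p-values were 0.173 and 0.224, and without any 1 of the ABA libraries they were 0.0620 to 0.0925 and 0.0649 to 0.138. The second was lost also without CLE12p with ABA replicate 3 (0.0732) and with only the libraries compared (0.0546). The count of 4 fell to 2 without CLE12p with ABA replicate 2 or without any 1 of the ABA libraries. With only the libraries compared it was 7, and the median over the members was -0.08, against 0.00 over all gene models.

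Adding the peptide to ACC raised 2 members and lowered 7, where 4.98% of all gene models were called (3.26% higher and 1.73% lower). Lsat_1_v5_gn_1_70780 had 1903, 2157 and 2255 CPM with the peptide against 1599, 1527 and 1667 CPM with ACC alone, and rose by 0.42 ± 0.08 (adjusted p = 0.00359). Lsat_1_v5_gn_3_24441 had 1801, 1613 and 1527 CPM against 2272, 2353 and 2214 CPM, and fell by 0.45 ± 0.09 (adjusted p = 0.00334). Both groups of libraries stood apart for each of these members, and both calls held under all alternatives tried. Lsat_1_v5_gn_2_107260 rose by 0.28 ± 0.06 (adjusted p = 0.00813), from 1877 ± 41.5 to 2248 ± 96.3 CPM, with an adjusted p of 0.0530 without CLE12p with ACC replicate 2. Lsat_1_v5_gn_5_64980 fell by 0.41 ± 0.11 (adjusted p = 0.0383), from 1552 ± 38.9 to 1156 ± 152 CPM. Its adjusted p was 0.182 without CLE12p with ACC replicate 2, 0.124 without replicate 3, 0.0693 to 0.128 without any 1 of the ACC libraries, 0.0507 to 0.0518 without any 1 of the ABA libraries, and 0.0541 with a replicate block.

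The abundant Lsat_1_v5_gn_2_118741 was among the members lowered beside ACC, with 7315, 6849 and 6353 CPM with the peptide against 8748, 9334 and 8812 CPM with ACC alone. It fell by 0.37 ± 0.09 (adjusted p = 0.0145), and the libraries did not overlap. Beside ABA the same member had 9480, 8953 and 7509 CPM with the peptide against 7719, 7725 and 8286 CPM without, a log2 fold change of 0.13 ± 0.09 (adjusted p = 0.472). The call beside ACC was lost without ACC replicate 2 (0.0865) or CLE12p with ACC replicate 2 (0.0550) or 3 (0.0690). The test of the difference between the peptide's effects beside ABA and beside ACC gave 0.50 ± 0.13 (adjusted p = 0.0521), so a difference for this member was not called.

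The count of 9 beside ACC depended on single libraries. It was 5, 3 and 5 without ACC replicates 1, 2 and 3, and 2 and 4 without CLE12p with ACC replicates 2 and 3. It rose to 14 without CLE12p replicate 1 or 3, which enter only through the shared spread, and to 15 and 16 without CLE12p with ABA replicates 1 and 3. With totals that left out the members it was 16, with library totals 15, with no low-count filter 14, and with only the libraries compared 16. In none of these settings did a named member change sign.

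The peptide's effects beside ABA and beside ACC, which share no library, were set against each other member by member. Over the 100 members the log2 fold changes had a Pearson r of -0.60 and a Spearman rho of -0.45, and 39 members had the same sign in both, 29 of them lower in both. Over all 23413 gene models r was 0.20 and rho 0.14. By control rank, r was -0.40 for ranks 101 to 500, 0.03 for 501 to 2000, 0.33 for 2001 to 10000 and 0.19 beyond. The points of each comparison share its 6 libraries, their depth and their composition. Over the members r was -0.39 without CLE12p with ABA replicate 1, the library with the high share, and between -0.69 and -0.52 without any other library. The correlation is a description of these libraries. Called in both comparisons were 0 members, and 325 of all gene models tested (1.39%).

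**Figure D5:**
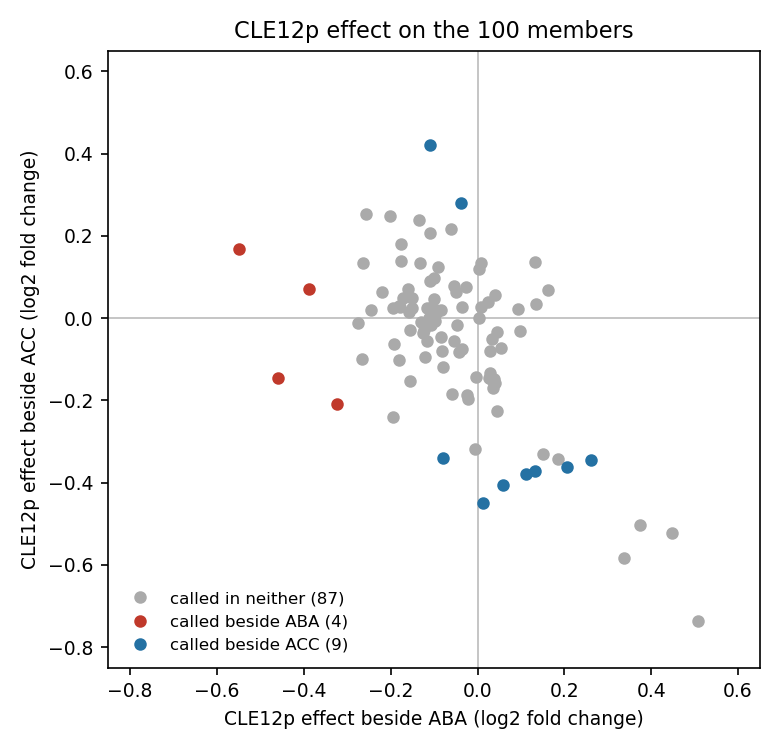
Log2 fold change on adding CLE12p beside ABA (horizontal) and beside ACC (vertical) for the 100 members. Red marks the 4 members called beside ABA, blue the 9 called beside ACC, and grey the 87 called in neither. The points run from upper left to lower right, with r of -0.60.

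The difference between the peptide's effects in the 2 backgrounds was called for 5 members, beside 1.08% of all gene models tested (0.666% higher and 0.414% lower). By control rank, 6.25% were called in ranks 101 to 500, 2.53% in ranks 501 to 2000 and 0.559% from rank 10001 on. A share above that of all gene models was thus not particular to the members. Lsat_1_v5_gn_9_113301 changed by -0.55 ± 0.11 beside ABA and by 0.17 ± 0.10 beside ACC, a difference of -0.72 ± 0.15 (adjusted p = 0.0258). Lsat_1_v5_gn_1_70780 changed by -0.11 ± 0.08 and 0.42 ± 0.08, a difference of -0.53 ± 0.12 (adjusted p = 0.0338). In the other direction, Lsat_1_v5_gn_4_131820 had 0.45 ± 0.16 beside ABA and -0.52 ± 0.16 beside ACC, a difference of 0.97 ± 0.22 (adjusted p = 0.0381). Lsat_1_v5_gn_9_69440 had a difference of 0.88 ± 0.21 (adjusted p = 0.0485), and Lsat_1_v5_gn_5_19701, named after its values had been seen, one of 0.60 ± 0.14 (adjusted p = 0.0376). For Lsat_1_v5_gn_4_131820 the libraries of CLE12p with ABA were 1502, 1271 and 921 CPM, against 873, 892 and 951 CPM with ABA alone, so these overlapped, whereas those of CLE12p with ACC (939, 839 and 860 CPM) lay below those of ACC (1208, 1375 and 1262 CPM).

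All 5 of these calls were fragile. The count was 0 without any 1 of the ABA libraries, ACC replicate 2 or 3, or CLE12p with ACC replicate 2 or 3. It was 1 without ACC replicate 1 or CLE12p with ABA replicate 1 or 2, 2 without water replicate 1, and 3 with a replicate block. It was 12, 8 and 9 without CLE12p replicates 1, 2 and 3, 14 without CLE12p with ABA replicate 3 and 11 without CLE12p with ACC replicate 1. DESeq2 called 14 members, and edgeR with library totals 10, of which 8 were higher and 2 lower.

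Against the controls the same members can only be described, since control values chose them, and nothing is read from these counts. The labels do not tie treatments to controls: ethanol for treatments with ABA and water for the rest were assumed, and with both controls pooled the counts were 13 instead of 8 for ABA and 21 instead of 13 for CLE12p with ABA. ABA against ethanol gave 3 members higher and 5 lower at the same threshold, where 10.2% of all gene models tested were called (5.15% higher and 5.01% lower). ACC against water gave 2 and 3, beside 8.09% of all (4.98% and 3.12%). CLE12p against water gave 0 and 2, beside 5.34% (4.35% and 0.991%). CLE12p with ABA against ethanol gave 2 and 11, beside 14.4% (7.79% and 6.63%), and CLE12p with ACC against water gave 7 and 19, beside 18.1% (10.4% and 7.69%). The median log2 fold changes of the members were -0.04, -0.04, -0.05, -0.10 and -0.09, and 68 to 76 members lay below 0. The comparisons share their control libraries, and ACC, CLE12p and their mixture were all set against the same water libraries. Members drawn from the control not used in the comparison gave 9, 5, 1, 14 and 25 calls. With totals that left out the members, the 7 and 19 of CLE12p with ACC against water became 5 and 37, and the 2 and 3 of ACC against water became 1 and 3.

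Single libraries moved several of these counts. ABA against ethanol gave 4 without ethanol replicate 1 and 5 without any 1 of the ABA libraries. ACC against water gave 3 without water replicate 1 or ACC replicate 1 and 2 without ACC replicate 3. CLE12p against water gave 0 without water replicate 1 or CLE12p replicate 1, 1 without water replicate 2 or CLE12p replicate 3, 6 without water replicate 3 and 4 without CLE12p with ABA replicate 2. CLE12p with ABA against ethanol gave 4 without ethanol replicate 1 and 23 without CLE12p with ABA replicate 1. CLE12p with ACC against water gave 15 without water replicate 1 or 2, and 16 and 17 without CLE12p with ACC replicates 2 and 3.

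The levels of 2 of the most mobile members in the controls place them among the treatments. Lsat_1_v5_gn_8_96880 had 1038, 1061 and 1208 CPM in water and 1024 and 1068 CPM in ethanol, above all 6 libraries with ABA (717 to 844 CPM) and below all 6 with ACC (1375 to 1560 CPM), while the CLE12p libraries (1105 to 1293 CPM) overlapped water. Lsat_1_v5_gn_2_82001 had 758, 992 and 740 CPM in water but 1571 and 1211 CPM in ethanol, so its levels in the 2 controls did not overlap. Its order by group mean was CLE12p, water, ACC, ethanol, CLE12p with ACC, CLE12p with ABA and ABA (765 to 1756 CPM), and each group overlapped its neighbour in that order in single libraries. Lsat_1_v5_gn_9_113301 had 1316 to 1645 CPM in the 5 control libraries, close to ABA alone, and lay below all of these in each library with ACC or the peptide, the highest of which had 1266 CPM.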

How the data were processed

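The authors deposited unnormalised counts of reads, in whole numbers, for each gene model and library. The submitters' processing notes list STAR 2.7.10a. How reads were counted, whether strand was used, and which build and annotation served are not given in the sources here, so overlapping, antisense and near-identical genes cannot be told apart. Library totals were 18614220 to 27101622 counts, 0 columns were unused, and 9654 gene models had 0 counts throughout. None of the 19 within-group library pairs looked like a repeat (chi-square over its degrees of freedom 3.59 to 24.9).

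CPM was each count divided by its library total and scaled as its name says. The test was run in edgeR 4.0.16 (R 4.3.3): gene models kept by filterByExpr with a minimum of 10 counts (23413, all members included), TMM factors (0.961 to 1.03), group means fitted to all 20 libraries, a quasi-likelihood F-test, two-sided, and Benjamini-Hochberg adjustment over all gene models tested. Standard errors are the log2 fold change over the root of F. The code was tested on simulated data. The members, lists and comparisons were chosen with earlier results of these data known. Named members were the 5 highest, ranks 99 to 102, at most 2 called in each direction of each comparison whose libraries did not overlap (in the difference, without that condition), and the 3 widest and 3 narrowest ranges; where 5 or fewer were called all are named. Same-numbered replicates did not pair: of 57 pairs across groups, correlations of their deviations ran from -0.221 to 0.114, with 1 above 0.1.

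Alternatives were DESeq2 1.42.0, its size factors in edgeR, library totals with and without the members, no low-count filter, a replicate block, only the libraries compared, pooled controls, members chosen in water, in ethanol or over all groups, and each library left out in turn. No sequences or gene positions are used here.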

Additional observations from a re-analysis of the deposited data

Results flagged for a closer look

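The 5 members below were picked out because the difference between the peptide's effects beside ABA and beside ACC passed edgeR's test at an adjusted p below 0.05. The differences, in log2 fold change beside ABA minus that beside ACC, were -0.72 for Lsat_1_v5_gn_9_113301, -0.53 for Lsat_1_v5_gn_1_70780, 0.60 for Lsat_1_v5_gn_5_19701, 0.88 for Lsat_1_v5_gn_9_69440 and 0.97 for Lsat_1_v5_gn_4_131820. Leaving out single libraries raised their adjusted p-values to at most 0.0844 and 0.105 for the first pair, and 0.109, 0.140 and 0.110 for the rest. With a replicate block the calls of Lsat_1_v5_gn_9_69440 (0.0654) and Lsat_1_v5_gn_4_131820 (0.0538) were lost. Both of these members varied widely among replicates of CLE12p with ABA, where Lsat_1_v5_gn_9_69440 had 2073, 1763 and 1307 CPM, with the highest value in replicate 1, the library with the high share of counts in the members. What part that library has in the differences was not tested beyond leaving it out, which gave 0.70 (adjusted p = 0.103) and 0.79 (adjusted p = 0.0772).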

How the results depend on the processing

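Over 25 results for named members, 675 alternative values gave the same direction in all cases (0 reversed), 583 with the call kept and 92 with it lost, and 11 of the 25 were called under all alternatives tried. The lowest count of a member was 11674, so counting error was small beside the spread between libraries. The replicate number as a block moved the count for the difference of peptide effects from 5 to 3 and no other count by over 1.5 times; the numbers do not pair the libraries.

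With only the libraries compared, counts of members called were 7 for CLE12p with ABA against CLE12p, 0 for CLE12p with ACC against CLE12p, 46 for ABA against ACC, 7 for CLE12p with ABA against ABA, 16 for CLE12p with ACC against ACC, 14 for the difference, 18 for ABA against ethanol, 8 for ACC against water, 0 for CLE12p against water and 7 for CLE12p with ABA against ethanol. DESeq2 gave 6 for CLE12p with ACC against CLE12p and 14 for the difference. Totals without the members gave 5 for CLE12p with ACC against CLE12p, 16 for CLE12p with ACC against ACC and 42 for CLE12p with ACC against water. Library totals gave 5 for CLE12p with ACC against CLE12p, 15 for CLE12p with ACC against ACC and 10 for the difference. No low-count filter gave 14 for CLE12p with ACC against ACC and 12 for the difference. Pooled controls gave 13 for ABA and 21 for CLE12p with ABA. Members chosen in water gave 8 for the difference, and a share of 20.8% in ethanol and 20.2% in ABA; chosen over all groups, the share in ethanol was 20.9%; chosen in ethanol, CLE12p against water gave 1. The cause of these movements was not tested. Shares of all gene models called under these settings, or with 1 library left out, are not given here. The counts therefore cannot be read as particular to the members.

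Without 1 library at a time, counts ran from 9 to 14 for CLE12p with ABA against CLE12p, 3 to 8 for CLE12p with ACC against CLE12p, 10 to 23 for ABA against ACC, 2 to 6 for CLE12p with ABA against ABA, 2 to 16 for CLE12p with ACC against ACC, 0 to 14 for the difference, 4 to 9 for ABA against ethanol, 2 to 7 for ACC against water, 0 to 6 for CLE12p against water, 4 to 23 for CLE12p with ABA against ethanol and 15 to 28 for CLE12p with ACC against water. Shares ran from 20.4 to 21.3% in water, 20.9 to 20.9% in ethanol, 20.3 to 20.5% in ABA, 19.9 to 20.2% in ACC, 19.5 to 20.1% in CLE12p, 19.1 to 20.1% in CLE12p with ABA and 18.8 to 19.2% in CLE12p with ACC. The correlation of the peptide effects over the members, an alternative chosen after seeing the data, ran from -0.69 to -0.39 without 1 library and from -0.60 to -0.59 in other settings.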

Other observations

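The gene models that moved into the first 100 of a treated group had control ranks from 101 to 258. Lsat_1_v5_gn_3_33940, at control rank 141 with 621 CPM in the controls, stood at 1364 CPM under ACC and 1634 CPM under CLE12p with ACC, rank 38 of that group. CLE12p with ACC had 11 such entrants, ACC 9, CLE12p with ABA 8, and ABA and CLE12p 7 each. Water and ethanol had 3 each, but their libraries chose the members, so a low number there is built into the choice. Some entrants of treated groups also stood in the first 100 of a control mean. Lsat_1_v5_gn_4_28880 was one of these, with 867 CPM in CLE12p with ABA and 930 CPM in water.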
